A study of Mus musculus with 3 samples.

Results

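Oxidative phosphorylation genes were examined in T cells sorted from B16F10 tumors, a transplantable mouse melanoma. The set holds 107 of the 14811 genes in the table of counts. It was chosen by name: 13 genes whose names start with mt-Nd, mt-Co, mt-Cyt or mt-Atp form the mitochondrial-encoded set, and 94 genes whose names start with Ndufa, Ndufb, Ndufc, Ndufs, Ndufv, Sdh, Uqcr, Cox4 to Cox8 or Atp5 form the nuclear set. All 13 mitochondrial genes in the table are members, and they took 1.23% of all UMIs (unique molecular identifiers, which count captured RNA molecules), against 2.65% for the nuclear set. By complex, the mitochondrial-encoded set has 7 subunit genes of complex I, 1 of complex III, 3 of complex IV and 2 of complex V. The nuclear set has 38 subunit genes and 8 assembly factors of complex I, and 4 subunit genes and 4 assembly factors of complex II. It has 8 genes of complex III, 15 of complex IV and 17 of complex V. Groups go by gene name, so Ndufa4, now known as a complex IV subunit, is counted in complex I.

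The respiratory chain moves electrons from NADH (complex I) and succinate (complex II) through complex III and cytochrome c to oxygen at complex IV, and complexes I, III and IV pump protons that drive ATP synthase (complex V). The core membrane subunits of complexes I, III, IV and V are transcribed from the mitochondrial genome as long polycistronic RNAs inside the organelle. All subunits of complex II, and the remaining subunits of the other complexes, come from nuclear genes and are imported. In T cells, activation raises both glycolysis and respiration, and long-lived memory cells and regulatory T cells are known to lean on respiration.

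Purified CD45.1 CD4 T cells or CD45.2 CD8 T cells were given by tail vein 1 day after B16F10 cells had been implanted under the skin, and tumors were taken on day 11. From 10 pooled mice, CD4+ and CD4+CD8+ cells of CD45.1 type and CD8+ and CD8+CD4+ cells of CD45.2 type were sorted, given a hashtag each and pooled, and about 6200 cells were loaded as 1 droplet library read from the 5′ end of transcripts. The labels do not tie the 4 hashtag numbers to the sorted populations, so the authors' classes per cell were compared. Per the labels each population had its own hashtag and equal shares were aimed at, yet every class had cells under all 4 numbers: 47, 108, 41 and 117 cells of Cd8-identity Tdp under numbers 1 to 4, 387, 834, 867 and 593 of the Cd8 class, 25, 38, 9 and 21 of Cd4-identity Tdp, and 1137, 755, 202 and 383 of the Cd4 class. What a number stands for, and so what a value within a number means, is therefore not known. In all there were 313 cells of Cd8-identity Tdp, 2681 of the Cd8 class, 93 of Cd4-identity Tdp and 2477 of the Cd4 class. All Tdp cells held a UMI of both Cd4 and Cd8a, as did 5 cells of the Cd8 class and 3 of the Cd4 class. A Cd8a or Cd8b1 UMI was found in 86.3% of the Cd8 class and a Cd4 UMI in 63.4% of the Cd4 class, and the remaining cells of these classes lacked one. The sources used here do not say how identity and Tdp were called.

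All cells came from 1 library with no replicate, so no difference below was tested across samples. Hashtag numbers are parts of 1 pool, and a direction seen under each of them does not replicate a result. Levels are given in CPM, UMIs of a gene or set per 1000000 UMIs of all cells of a class, and every range in brackets is an exact 95% interval that covers counting error only. The 5564 cells held 26763131 UMIs, with class totals between 572348 UMIs (Cd4-identity Tdp) and 13524145 UMIs (Cd8 class), and median UMIs per cell of 4981, 4159, 4668 and 3478 in Cd8-identity Tdp, the Cd8 class, Cd4-identity Tdp and the Cd4 class. No cell had over 4.99% mitochondrial UMIs. Above 4% lay 45 cells of the Cd8 class, 15 of the Cd4 class and 0 of either Tdp group. Whether cells above a limit on this share were left out before deposit was not tested. The 6 T cell markers summed to between 3905 and 4409 CPM in the 4 classes. Macrophage or monocyte markers (10 genes) summed to 726 CPM in Cd8-identity Tdp, 1766 CPM in the Cd8 class, 131 CPM in Cd4-identity Tdp, where Csf1r and C1qb were at 0, and 775 CPM in the Cd4 class. Natural killer cell markers (6 genes) summed to 345, 715, 67.9 and 295 CPM in the same classes, and Ncr1, Klrb1c and Klra8 were at 0 in Cd4-identity Tdp. Tyrobp and Fcer1g are in both of these marker lists, so their sums share transcripts.

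A member counted as measured at 50 CPM or more over all cells, which kept 12 of 13 mitochondrial-encoded and 78 of 94 nuclear members. Members at least 25% higher, or at least 20% lower, with an interval leaving out a fold of 1, are called higher or lower below, a rule of size and not a test. Below the level were mt-Nd6, a complex I subunit (23.7 CPM), Ndufs1, which carries iron-sulfur clusters of complex I (31.2 CPM), the complex I assembly factors Ndufaf1 to Ndufaf7, the complex II assembly factors Sdhaf1 to Sdhaf4, and Cox4i2, Cox6a2, Cox6b2 and Cox7a1, subunit forms known from lung, muscle, testis and heart. Nearest below the level were Ndufaf3 and Sdhaf2 at 44.3 CPM each.

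Promoters of the nuclear members were searched for 3 short motifs, since known regulators of these genes include NRF1, ETS family factors such as GABP, and YY1. RefSeq promoter windows on GRCm38.p6, from 250 bases before to 50 bases after the start, were matched for 79 of the 94 nuclear members. The letters TGCGCA (only a part of the NRF1 site, which reads the same on both strands) were in 26.6% of them. They were in 17.0% of the windows of 2388 genes at 50 CPM or more and 8.06% of 27025 windows in all. CCGGAAG (an ETS core, either strand) was in 26.6% of members, 22.4% of genes at that level and 9.12% of all windows, and AAGATGG (a YY1 core, either strand) in 13.9%, 8.79% and 6.48%. These are shares of windows with the letters, not of bound sites. At least 1 of the 3 was found in 43 members and all 3 in 0. The windows below are those of the 2 nuclear members that differed most between the Cd8 and Cd4 classes, Ndufa4 (minus strand, chr6:11907401-11907700) and Ndufv3 (plus strand, chr17:31519865-31520164), and, for the motif, of Uqcrc1 (plus strand, chr9:108936398-108936697). Capitals mark the 2 copies of TGCGCA in Uqcrc1, which lie side by side from bases 280 and 286 of the window. No searched motif was in the other windows.
Ndufa4: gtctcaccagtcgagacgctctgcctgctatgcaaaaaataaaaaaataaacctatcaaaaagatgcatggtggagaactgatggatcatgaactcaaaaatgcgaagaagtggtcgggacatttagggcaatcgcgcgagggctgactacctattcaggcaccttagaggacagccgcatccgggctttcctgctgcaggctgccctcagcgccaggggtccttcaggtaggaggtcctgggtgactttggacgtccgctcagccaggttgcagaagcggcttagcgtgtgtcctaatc
Ndufv3: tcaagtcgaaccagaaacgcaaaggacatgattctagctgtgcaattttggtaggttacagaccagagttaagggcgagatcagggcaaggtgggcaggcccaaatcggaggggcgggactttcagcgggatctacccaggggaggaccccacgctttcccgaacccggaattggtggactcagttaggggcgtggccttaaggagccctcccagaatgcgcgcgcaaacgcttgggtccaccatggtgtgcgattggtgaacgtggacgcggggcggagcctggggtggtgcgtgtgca
Uqcrc1: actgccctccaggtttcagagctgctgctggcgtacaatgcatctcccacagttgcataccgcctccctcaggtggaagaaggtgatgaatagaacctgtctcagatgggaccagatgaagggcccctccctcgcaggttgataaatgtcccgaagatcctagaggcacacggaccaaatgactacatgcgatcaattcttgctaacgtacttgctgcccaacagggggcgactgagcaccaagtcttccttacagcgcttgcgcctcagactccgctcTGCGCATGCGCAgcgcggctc

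The mitochondrial-encoded transcripts separated the Cd4 class from the other 3 classes, while the nuclear ones did not. Summed over 13 genes, they stood at 13005 CPM (12842 to 13169) in Cd8-identity Tdp, 13619 CPM (13557 to 13681) in the Cd8 class, 12791 CPM (12500 to 13088) in Cd4-identity Tdp and 10371 CPM (10310 to 10432) in the Cd4 class. By hashtag number 1 to 4 the sums were 13471, 12780, 13819 and 12658 CPM in Cd8-identity Tdp. They were 12354, 13557, 13923 and 14138 CPM in the Cd8 class. The sums of Cd4-identity Tdp were 12753, 12545 and 12195 CPM under numbers 1, 2 and 4, with 9 cells under number 3, fewer than the 20 required. In the Cd4 class they were 9930, 10669, 11536 and 10712 CPM. The Cd4 class was the lowest group under every number, and none of its 4 values reached any value of the other classes.

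The nuclear set summed to 26955 CPM in Cd8-identity Tdp, 26339 CPM in the Cd8 class, 26220 CPM in Cd4-identity Tdp and 26733 CPM in the Cd4 class. Over the 15 groups of class and hashtag number with at least 20 cells, the nuclear sum ran between 24188 and 28344 CPM, 1.17-fold, and the mitochondrial-encoded sum between 9930 and 14138 CPM, 1.42-fold. There were 0.482, 0.517, 0.488 and 0.388 mitochondrial-encoded UMIs for each nuclear one in Cd8-identity Tdp, the Cd8 class, Cd4-identity Tdp and the Cd4 class. Cells thinned to 2000 UMIs had a median of 24, 27, 24 and 19 mitochondrial-encoded UMIs and of 53, 51, 51 and 52 nuclear ones in the same order, so the Cd4 class was also lowest in mitochondrial-encoded UMIs per thinned cell.

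**Figure D1:**
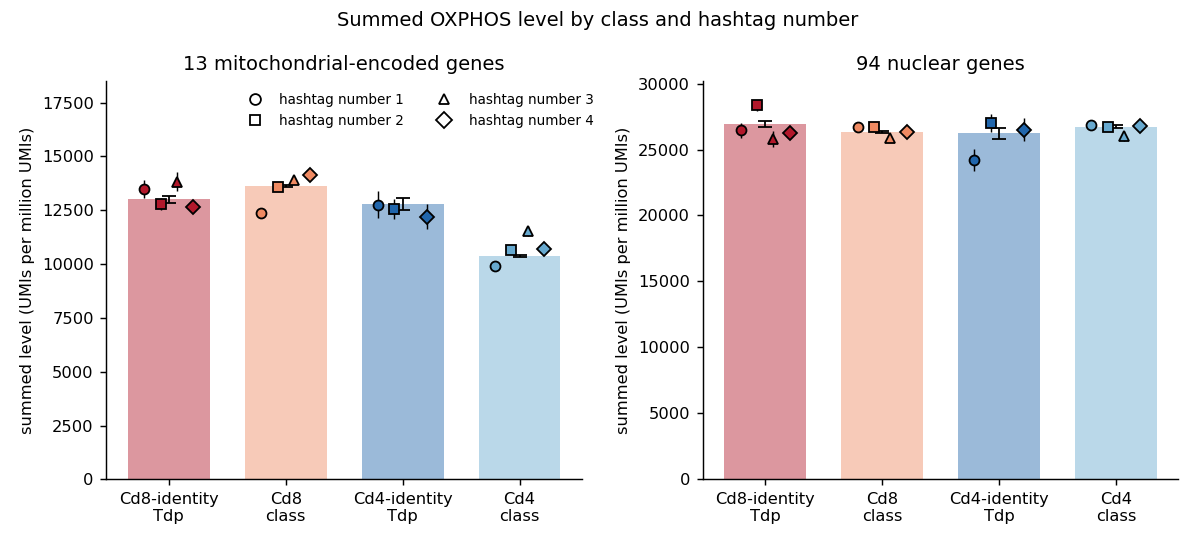
Summed level in CPM of the mitochondrial-encoded set and of the nuclear set in the 4 classes. Bars give the class with its 95% Poisson interval and points give single hashtag numbers with at least 20 cells. Mitochondrial-encoded sums lie between 12195 and 14138 CPM in 3 classes and between 9930 and 11536 CPM in the Cd4 class.

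Between the Cd8 and Cd4 classes the mitochondrial-encoded sum was 1.31-fold higher in the Cd8 class (1.30 to 1.32), and 1.24-, 1.27-, 1.21- and 1.32-fold higher within hashtag numbers 1 to 4. Of 12 measured genes 10 were called higher and 0 lower, where 7.47% of all 2945 measured genes were called higher and 10.5% lower. All 12 lay above 1, where 43.8% of all genes did, and their median log2 ratio was 0.39, against -0.03 over all measured genes. Within each of hashtag numbers 1 to 4 all 12 lay above 1 as well, where 43.3%, 43.9%, 42.8% and 48.9% of all genes did. The count of 10 was 5 when Cd4 class cells were weighted to the hashtag numbers and UMI totals of the Cd8 class, and 6 without cells holding a Foxp3 UMI. In cells of the lowest to the highest quartile of UMI totals (limits 2912, 3869 and 5672 UMIs), the fold was 1.52, 1.37, 1.42 and 1.21. Macrophage or monocyte markers were higher in the Cd8 class (above), and without cells that held 2 or more UMIs of the markers of macrophages or monocytes, B cells or melanoma, the fold was 1.36.

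The complex I gene mt-Nd5, which encodes a proton-pumping subunit, differed most. It stood at 290.0, 337, 371 and 359 CPM in the Cd8 class under numbers 1 to 4, against 204, 220.0, 224 and 224 CPM in the Cd4 class. The ranges did not overlap, and the fold was 1.62 (1.55 to 1.71). For this gene and those below, the share of all genes without overlap is not given. All 6 measured mitochondrial-encoded complex I genes were called higher, between 1.28-fold (mt-Nd1) and 1.62-fold (mt-Nd5). mt-Nd4l was 1.43-fold higher, mt-Nd3 1.40-fold, mt-Nd4 1.37-fold and mt-Nd2 1.31-fold. All are membrane subunits of the proton-pumping arm, and reads of mt-Nd4l and mt-Nd4, which overlap in the genome, may have been split between them. mt-Nd6, the gene below the level, lies antisense to the end of mt-Nd5; the sources used here do not say whether counting used the strand. It stood at 22.8 CPM in the Cd8 class and 24.5 CPM in the Cd4 class, a fold of 0.930 (0.786 to 1.10).

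The 3 catalytic core subunits of cytochrome c oxidase were called higher as well. mt-Co1, which binds the haem and copper centre that reduces oxygen, stood at 3315, 3608, 3771 and 3754 CPM in the Cd8 class and at 2669, 2944, 3139 and 2843 CPM in the Cd4 class under numbers 1 to 4, with no overlap and a fold of 1.30 (1.28 to 1.32). mt-Co3 was 1.36-fold higher and mt-Co2, the subunit that takes electrons from cytochrome c, 1.29-fold higher. Of complex V, mt-Atp6, part of the proton channel, was 1.30-fold higher, and mt-Atp8 stood at 1.21-fold (1.16 to 1.27), under the size rule. The 2 genes overlap, so their split is uncertain. mt-Cytb, the cytochrome b of complex III, stood at 1022, 1104, 1090 and 1130 CPM in the Cd8 class and 860, 936, 986 and 924 CPM in the Cd4 class, with no overlap and a fold of 1.21 (1.18 to 1.245), also under the rule.

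**Figure D2:**
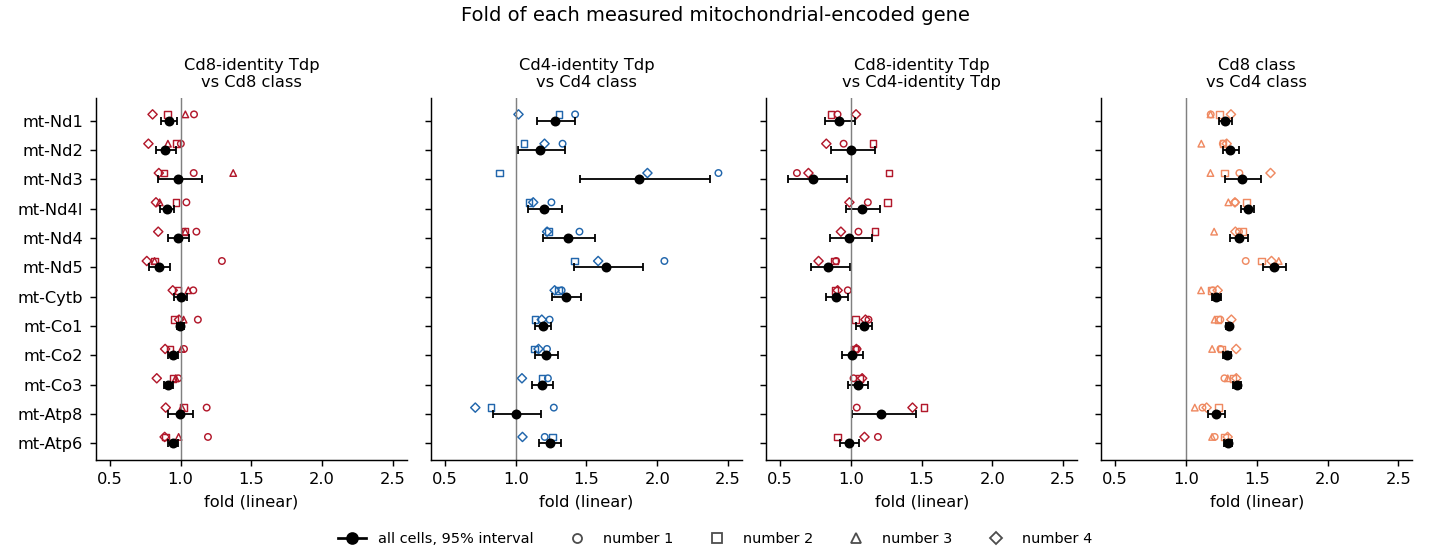
Fold of each measured mitochondrial-encoded gene in 4 comparisons of classes on a linear axis, with 95% intervals for counting error and points for hashtag numbers with at least 20 cells of both classes. In the Cd8 class against the Cd4 class all 12 genes lie above 1, from 1.21-fold to 1.62-fold, and in Cd8-identity Tdp against the Cd8 class all lie between 0.85-fold and 1.00-fold.

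Cd4-identity Tdp cells also stood above the Cd4 class in the mitochondrial-encoded sum, with 572348 UMIs behind the values and so wider intervals. Their mitochondrial-encoded sum was 1.23-fold higher (1.204 to 1.26), and 1.28-, 1.18- and 1.14-fold higher within numbers 1, 2 and 4. Of 12 genes 5 were called higher and 0 lower, where 5.37% of all genes were called higher and 5.81% lower. Above 1 lay 11 of 12, where 49.5% of all genes did, and the median log2 ratio was 0.30, against -0.00 over all genes. In the third and the highest quartile of UMI totals the fold was 1.24 and 1.22. Macrophage or monocyte markers were lower in Cd4-identity Tdp (above), and without the cells that held them the fold was again 1.23. A pair of Trbv genes with 2 or more UMIs each, which can mark 2 cells in a droplet, was found in 38.7% of Cd4-identity Tdp cells and 9.29% of Cd4 class cells, and in 19.2% of Cd8-identity Tdp and 12.8% of Cd8 class cells. Without them 57 Cd4-identity Tdp and 2247 Cd4 class cells remained, the fold was 1.23 and 4 genes were called higher.

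Of the 5 genes, mt-Nd5 stood at 418, 312 and 354 CPM in Cd4-identity Tdp under numbers 1, 2 and 4, and at 204, 220.0 and 224 CPM in the Cd4 class. All 3 Tdp values were above every Cd4 class value, and the fold was 1.64 (1.41 to 1.90). mt-Cytb stood at 1139, 1219 and 1178 CPM in Cd4-identity Tdp and at 860, 936 and 924 CPM in the Cd4 class, again with no overlap, and the fold was 1.36 (1.253 to 1.46). mt-Nd4 (1.37-fold) and mt-Nd1 (1.28-fold) lay above 1 under each of the 3 numbers. mt-Nd3, a small complex I subunit with 75 UMIs in Cd4-identity Tdp, was 1.87-fold higher (1.46 to 2.38) overall but 0.885-fold under number 2. mt-Atp8 stood at 259 CPM in both classes (fold 1.00, 0.84 to 1.18), while mt-Atp6 was at 1.24-fold and the 3 complex IV genes at 1.19- to 1.21-fold.

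Cd8-identity Tdp cells and the Cd8 class were close in mitochondrial-encoded transcripts. The sum was 0.955-fold (0.942 to 0.968), with 1.09-, 0.943-, 0.993- and 0.895-fold within numbers 1 to 4, so number 1 went the other way. No gene of 12 was called in either direction, where 5.53% of all genes were called higher and 3.94% lower, and the lowest was mt-Nd5 at 0.850-fold (0.777 to 0.928). Cd8-identity Tdp and Cd4-identity Tdp differed by 1.02-fold in the sum (0.990 to 1.04). Between these Tdp groups 0 genes were called higher and 1 lower, where 6.93% of all genes were called higher and 5.40% lower. The gene was mt-Nd3, at 96.2 CPM in Cd8-identity Tdp and 131 CPM in Cd4-identity Tdp, and its fold of 0.734 (0.558 to 0.975) turned to 1.27 under number 2. The comparisons share classes, so their values are not independent of each other.

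Between the Cd8 and Cd4 classes the nuclear members lay nearer to 1 than the mitochondrial-encoded ones. Their sum was at 0.985-fold (0.980 to 0.990), and at 0.995-, 1.00-, 0.996- and 0.981-fold within numbers 1 to 4. Of 78 measured members 1 was called higher and 1 lower, where 7.47% of all genes were called higher and 10.5% lower. The median log2 ratio was -0.03, equal to that of all genes. Complex by complex, the folds of the sums were 0.961 for complex I, 1.01 for complex II and 0.974 for complex III. They were 1.00 for complex IV and 1.00 for complex V, with Ndufa4 counted by its name in complex I. The mitochondrial-encoded sums of complexes I, III, IV and V stood at 1.38-, 1.21-, 1.31- and 1.28-fold.

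An example gene is given for each complex. Cox4i1, the main nuclear regulatory subunit of complex IV, stood at 1106, 1099, 1088 and 1072 CPM in Cd8-identity Tdp, the Cd8 class, Cd4-identity Tdp and the Cd4 class. Atp5b, the catalytic beta subunit of ATP synthase, stood at 653, 639.8, 631 and 619.6 CPM. Ndufv1, which binds NADH in complex I, stood at 70.7, 70.5, 69.9 and 70.8 CPM. Each of these 3 lay between 0.986- and 1.04-fold in all 4 comparisons. Sdha, the flavoprotein of succinate dehydrogenase, stood at 88.3, 95.02, 96.1 and 98.1 CPM, and Uqcrc1, a core protein of complex III, at 191, 176, 161 and 176 CPM, each with intervals that include 1 in all 4 comparisons.

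**Figure D3:**
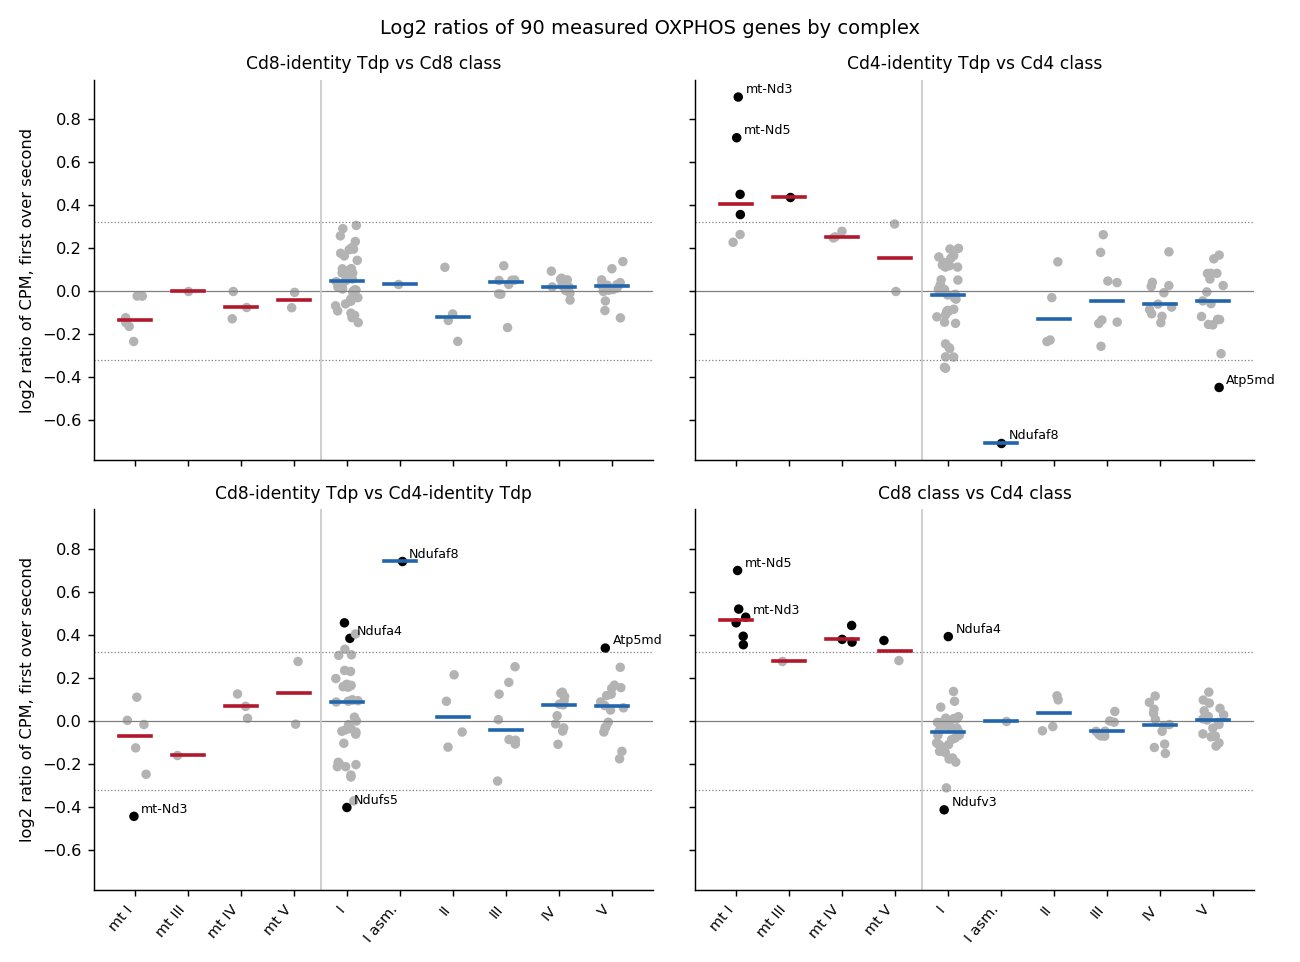
Log2 ratio of each measured member by complex in 4 comparisons of classes. Black points are called members, short lines are medians and dotted lines mark the size rule. In the Cd8 class against the Cd4 class the mitochondrial-encoded groups lie at medians between 0.28 and 0.47, and the nuclear complexes between -0.05 and 0.04.

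The 2 nuclear members called between the single classes had hashtag values that did not overlap. These values are parts of the sums behind the calls, and the share of all genes without overlap is not given here. Ndufa4, named for complex I and now known as a subunit of complex IV, stood at 469.5, 506, 503 and 474 CPM in the Cd8 class under numbers 1 to 4 and at 375, 380.0, 371 and 367 CPM in the Cd4 class. Its fold was 1.31 (1.26 to 1.37), and between 1.29 and 1.38 in all 11 alternatives. Ndufv3, an accessory subunit of the NADH-binding module of complex I, went the other way, with 319, 325, 299 and 327 CPM in the Cd8 class and 407, 438, 426 and 432 CPM in the Cd4 class. Its fold was 0.750 (0.719 to 0.782), and between 0.727 and 0.769 in the alternatives. Next in order, Ndufs5, another accessory subunit, was at 0.805-fold (0.756 to 0.858) and Ndufa5 at 0.875-fold on the lower side, and Ndufb2 at 1.10-fold and Cox8a, a small complex IV subunit, at 1.08-fold on the upper side, all under the rule.

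In the Tdp groups both genes lay on the same side of 1 as in the single classes, with wider counting intervals. Ndufa4 stood at 529 CPM in Cd8-identity Tdp and 405 CPM in Cd4-identity Tdp, a fold of 1.31 (1.13 to 1.51) that was 0.916, 1.61 and 1.69 under numbers 1, 2 and 4. Ndufv3 stood at 371 CPM in Cd8-identity Tdp and 429.8 CPM in Cd4-identity Tdp, with an interval of the fold (0.745 to 1.00) that includes 1. Within its own identity, Ndufv3 was at 1.17-fold (1.08 to 1.27) in Cd8-identity Tdp against the Cd8 class, above 1 under all 4 numbers, and at 1.02-fold (0.894 to 1.16) in Cd4-identity Tdp against the Cd4 class.

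Among the Tdp comparisons, Cd8-identity Tdp against the Cd8 class had 0 of 78 nuclear members called, where 5.53% of all genes were called higher and 3.94% lower, and a sum at 1.02-fold (1.01 to 1.03). Within numbers 1 to 4 this fold was 0.990, 1.06, 0.996 and 0.999, above 1 under number 2 alone. From the lowest to the highest quartile of UMI totals it was 1.11, 1.09, 1.04 and 0.979, so its direction turned in the deepest cells. The members farthest up were Ndufa9 (1.24-fold), Ndufa8 (1.22-fold) and Ndufb7 (1.195-fold), accessory subunits of complex I, and farthest down was Sdhc, a membrane anchor of complex II, at 0.850-fold (0.682 to 1.049). Cd4-identity Tdp against the Cd4 class had 0 members called higher and 2 lower, where 5.37% and 5.81% of all genes were. The sum was at 0.981-fold (0.965 to 0.997), at 0.901-, 1.01- and 0.988-fold under numbers 1, 2 and 4, and at 0.998- and 0.933-fold in the third and the highest quartile of UMI totals. The members called lower were Ndufaf8, a complex I assembly factor with 22 UMIs in Cd4-identity Tdp (0.612-fold, 0.381 to 0.934), and Atp5md, a small ATP synthase subunit that helps pair the enzymes (0.732-fold, 0.629 to 0.848), which was at 0.373-, 0.770- and 1.04-fold under numbers 1, 2 and 4. The farthest up was Uqcrc2, a complex III core protein, at 154 CPM in Cd4-identity Tdp and 128 CPM in the Cd4 class, with an interval of the fold (0.956 to 1.49) that includes 1. The 2 lower calls became 7 with TMM scaling (trimmed mean of M values, a scaling of libraries), 6 with weighted cells and 5 without cells holding a Foxp3 UMI.

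Between Cd8-identity Tdp and Cd4-identity Tdp, 4 nuclear members were called higher and 1 lower, and the sum was at 1.03-fold (1.01 to 1.047). Besides Ndufa4, the higher ones included Ndufaf8 (1.67-fold, 1.06 to 2.77) and Atp5md (1.27-fold, 1.08 to 1.49). Ndufs5 was lower at 0.756-fold (0.609 to 0.942), and below 1 under numbers 1, 2 and 4. These shares of 78 do not exceed the 6.93% and 5.40% of all genes (above). The 4 higher calls became 1 without cycling cells and 2 in thinned cells.

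Cell states within the classes also went with shifts of the sets, and each state was defined by the same cells' transcripts. Cycling cells, which held UMIs of at least 4 of the cell division genes in the proliferation list, were 19.8% of Cd8-identity Tdp, 13.9% of the Cd8 class, 16.1% of Cd4-identity Tdp and 8.44% of the Cd4 class. In the Cd8 class the nuclear sum was 29417 CPM in 372 cycling cells, 1.16-fold higher (1.15 to 1.17) than in the 2309 others, and between 1.14- and 1.17-fold within the hashtag numbers. In the Cd4 class it was 29793 CPM in 209 cycling cells, 1.15-fold higher (1.14 to 1.16). Cycling cells were deeper, with medians of 8014 and 8201 UMIs, and the folds were 1.08 and 1.04 within the third quartile of UMI totals and 1.12 and 1.11 within the highest, the quartiles with at least 20 cycling cells in both classes. Cytosolic ribosome genes summed to 201946 CPM in cycling cells and 258655 CPM in other cells of the Cd8 class, and to 206472 and 235648 CPM in the Cd4 class. With mitochondrial and ribosomal protein genes left out of the total, an alternative for the states chosen after seeing the data, the nuclear fold was 1.07 in the Cd8 class and 1.10 in the Cd4 class.

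Of 78 nuclear members 29 were called higher and 3 lower in cycling cells of the Cd8 class, where 22.5% of all genes were called higher and 21.9% lower. In the Cd4 class 33 were called higher and 5 lower, where 23.0% and 27.0% of all genes were. Above 1 lay 67 of 78 in the Cd8 class and 66 of 78 in the Cd4 class, where 48.0% and 47.3% of all genes did. With the total without mitochondrial and ribosomal protein genes, 16 were called higher and 5 lower in the Cd8 class, where 16.7% and 31.3% of all genes were, and 26 and 6 in the Cd4 class, where 590 (higher) and 911 (lower, 30.9%) of the 2945 were. With other cells weighted to the hashtag numbers and UMI totals of cycling cells, 15 were called higher in the Cd8 class, where 23.7% of all genes were, and 18 in the Cd4 class, where 21.8% were. Farthest up in the Cd8 class were Cox6a1 (1.49-fold), Cox5a (1.48-fold) and Cox7a2 (1.47-fold) of complex IV. In the Cd4 class they were Ndufab1, the mitochondrial acyl carrier protein (1.56-fold), and the ATP synthase genes Atp5o (1.53-fold) and Atp5g3 (1.53-fold). Uqcrh, the hinge protein of complex III, went the other way in both classes, at 627 CPM in cycling cells and 833 CPM in other cells of the Cd8 class (0.753-fold, 0.717 to 0.791) and at 611 and 859 CPM in the Cd4 class (0.711-fold, 0.669 to 0.755). Cox7a2l, which helps join complexes III and IV, was at 0.750-fold and 0.695-fold, and Ndufa6 at 0.710-fold and 0.771-fold, in the Cd8 and Cd4 classes. The mitochondrial-encoded sum was 0.903-fold in cycling cells of the Cd8 class and 0.989-fold in those of the Cd4 class, where 1 gene (mt-Co1, 0.794-fold) and 0 genes were called. In the third and the highest quartile of UMI totals it was at 0.935- and 0.975-fold in the Cd8 class and at 0.987- and 0.972-fold in the Cd4 class. In Cd8-identity Tdp, 62 cycling cells had a nuclear sum at 1.11-fold and a mitochondrial-encoded sum at 0.895-fold.

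Cells with a Foxp3 UMI had fewer mitochondrial-encoded transcripts. Foxp3 encodes the defining factor of regulatory T cells, and this split was chosen after values were seen. Among cells of the Cd4 class that were not cycling, 530 cells with a Foxp3 UMI summed to 8278 CPM (8156 to 8401), and 1738 cells without one to 11080.3 CPM (10999.7 to 11161). The fold was 0.747 (0.735 to 0.760), and 0.746, 0.714, 0.853 and 0.767 under hashtag numbers 1 to 4. From the lowest to the highest quartile of UMI totals it was 0.636, 0.641, 0.715 and 0.889, nearest to 1 in the deepest cells. The nuclear sum was at 0.961-fold (0.952 to 0.971). Cytosolic ribosome genes summed to 197630 CPM in cells with a Foxp3 UMI and 248010.0 CPM in those without. With mitochondrial and ribosomal protein genes left out of the total, the mitochondrial-encoded fold was 0.697 and the nuclear one 0.897, and over the 8 alternatives the mitochondrial-encoded fold lay between 0.687 and 0.760.

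Of 12 mitochondrial-encoded genes 11 were called lower in the cells with a Foxp3 UMI and 0 higher, where 13.9% of all genes were called lower and 15.2% higher. mt-Nd2 was farthest down, with 224 CPM in cells with a Foxp3 UMI and 353 CPM in those without (0.634-fold, 0.573 to 0.7003), and mt-Co1 nearest to 1, with 2499 and 3014 CPM (0.829-fold, 0.804 to 0.855). Above 1 lay 0 of these 12 and 21 of 78 nuclear members, where 49.9% of all genes did. Of the nuclear members 0 were called higher and 2 lower, Ndufa10, an accessory subunit of complex I (0.728-fold), and Atp5h, the d subunit of ATP synthase (0.788-fold). With mitochondrial and ribosomal protein genes left out of the total, 12 mitochondrial-encoded and 8 nuclear members were called lower, where 21.6% of all genes were. In the Cd8 class 64 cells that were not cycling held a Foxp3 UMI, and their mitochondrial-encoded sum was at 0.787-fold (0.763 to 0.812) and their nuclear sum at 1.01-fold (0.986 to 1.03). Of these, 24 under number 2 were at 0.938-fold in the mitochondrial-encoded sum, and 21 in the lowest quartile of UMI totals (median 1038 UMIs) lay on the other side, at 1.13-fold. In the same 21 cells the nuclear sum was at 0.652-fold (0.588 to 0.720).

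Cells of the Cd4 class with no Foxp3 UMI stood below such cells of the Cd8 class in the mitochondrial-encoded sum. A cell with no Foxp3 UMI can still hold the transcript, and the cause of the difference was not tested. Among cells that were not cycling and held no Foxp3 UMI, the mitochondrial-encoded sum was 14038 CPM in the Cd8 class and 11080.3 CPM in the Cd4 class, and without any cell holding a Foxp3 UMI the log2 ratio of these classes was 0.33, against 0.39 with all cells. A UMI of Pdcd1, the gene of the inhibitory receptor PD-1, went with little difference in either class: among cells that were not cycling the mitochondrial-encoded sum was at 1.02-fold in the Cd8 class and 0.986-fold in the Cd4 class, and the nuclear sum at 1.04-fold and 1.03-fold. Of the Cd8 class members 0 of 12 mitochondrial-encoded ones were called, and of 78 nuclear ones 0 higher and 1 lower (Ndufaf8 at 0.760-fold), where 8.69% of all genes were called higher and 5.64% lower. This split too was chosen after values were seen.

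**Figure D4:**
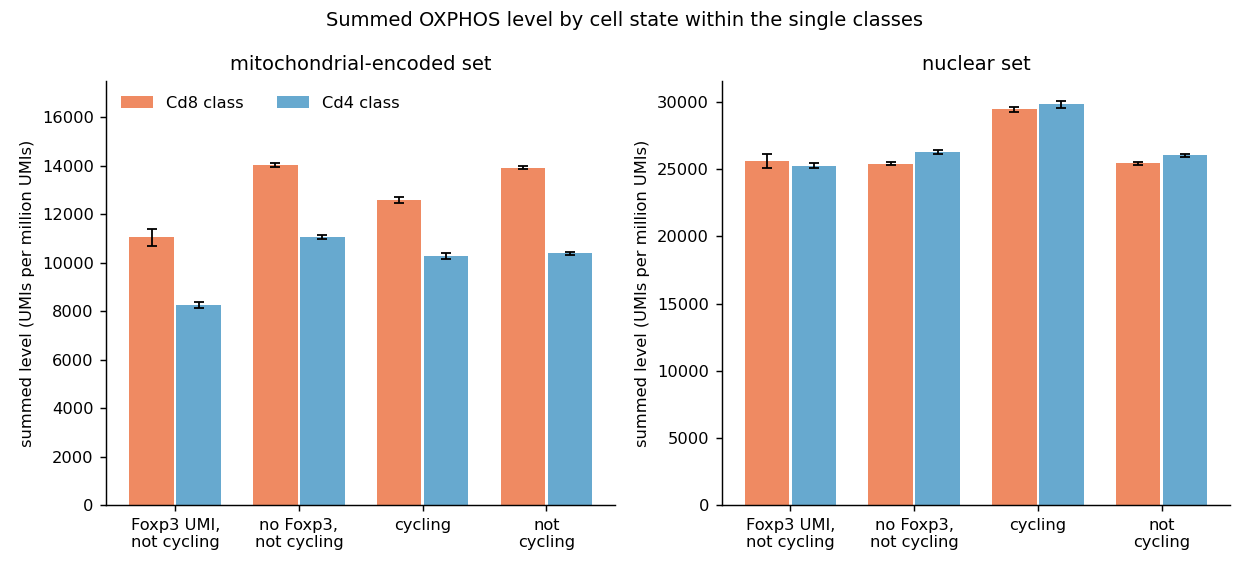
Summed level in CPM of the mitochondrial-encoded and nuclear sets in cell states of the Cd8 class and the Cd4 class, with 95% intervals for counting error. Cells with a Foxp3 UMI have the lowest mitochondrial-encoded sum, 8278 CPM in the Cd4 class, and cycling cells the highest nuclear sums, 29417 and 29793 CPM.

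Other genes of mitochondria and energy use put these values in context. In the Cd8 class against the Cd4 class 7.47% of all 2945 measured genes were called higher and 10.5% lower. Of 45 measured mitochondrial ribosome genes 0 were called, from Mrps36 at 1.21-fold to Mrpl14 at 0.858-fold, and their median log2 ratio was 0.01. Of 10 citrate cycle genes 0 were called, from Suclg1, a succinyl-CoA ligase subunit, at 1.21-fold to Pdha1, of pyruvate dehydrogenase, at 0.858-fold, and of 9 genes of electron carriers and exchange 0 were called, from the ADP/ATP carrier Slc25a4 at 1.13-fold to cytochrome c, Cycs, at 0.926-fold. Of 7 assembly factors of complexes III and IV 0 were called, from Surf1 at 1.13-fold to Cox14 at 0.863-fold, and of 81 cytosolic ribosome genes 0, from Rpl10a at 1.22-fold to Rps27rt at 0.927-fold. Of 17 biogenesis regulators in the table only Yy1 (0.928-fold) and Ssbp1, which binds single-stranded mitochondrial DNA (1.06-fold), reached the level.

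Among 5 genes of coupling and inhibition, Higd1a, a hypoxia-induced partner of complex IV, was called lower, with 229 CPM in the Cd8 class and 288 CPM in the Cd4 class (0.794-fold, 0.755 to 0.835). Atpif1, the inhibitor of ATP synthase, was highest of that list at 1.24-fold (1.17 to 1.32). Glycolysis ran opposite to the mitochondrial-encoded set: 12 of 13 measured genes were called lower in the Cd8 class and 0 higher. Over all genes 10.5% were called lower and 7.47% higher, and the median log2 ratio of the glycolysis genes was -0.66. Tpi1, triosephosphate isomerase, was farthest down, with 289.7 CPM in the Cd8 class and 602 CPM in the Cd4 class (0.481-fold, 0.462 to 0.501), and Pfkp, a phosphofructokinase, nearest to 1 at 0.879-fold. Of 11 proliferation genes, from Birc5 at 1.39-fold to Mki67 at 1.06-fold, 4 were called higher, where 7.47% of all genes were.

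The Tdp groups also differed in glycolysis genes, beside a mitochondrial-encoded sum at 1.02-fold. In Cd8-identity Tdp against Cd4-identity Tdp, where 6.93% of all genes were called higher and 5.40% lower, 8 of 13 glycolysis genes were called lower (median log2 ratio -0.41; Tpi1 at 289.8 CPM in Cd8-identity Tdp and 545 CPM in Cd4-identity Tdp), and 7 of 11 proliferation genes were called higher, with Ccna2, a cyclin, at 1.99-fold. Higd1a was lower there as well (0.744-fold, 0.623 to 0.893), and Atpif1 (1.27-fold) and Etfb, an electron transfer flavoprotein (1.39-fold), were called higher. In Cd8-identity Tdp against the Cd8 class (5.53% higher and 3.94% lower over all genes) 8 of 11 proliferation genes were called higher (Ube2c at 1.64-fold), and Hk1, hexokinase 1 (1.34-fold), was the only called gene of the glycolysis list. In Cd4-identity Tdp against the Cd4 class 5.37% of all genes were called higher and 5.81% lower. There 1 of 13 glycolysis genes was called lower (Eno1 at 0.794-fold), near that share. Still, 12 of the 13 lay below 1, with a median log2 ratio of -0.13, where 49.5% of all genes lay above 1. Of 11 proliferation genes 2 were called higher (Ccnb2 at 1.49-fold). Of 45 mitochondrial ribosome genes 2 were called higher (Mrpl58 at 1.44-fold) and 2 lower (Mrpl15 at 0.597-fold), near those shares. Ssbp1 was called lower there, with 52.4 CPM in Cd4-identity Tdp and 75.4 CPM in the Cd4 class (0.695-fold, with an upper bound of 1.00), as were the complex IV assembly factors Cox14 (0.736-fold) and Cox16 (0.745-fold).

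**Figure D5:**
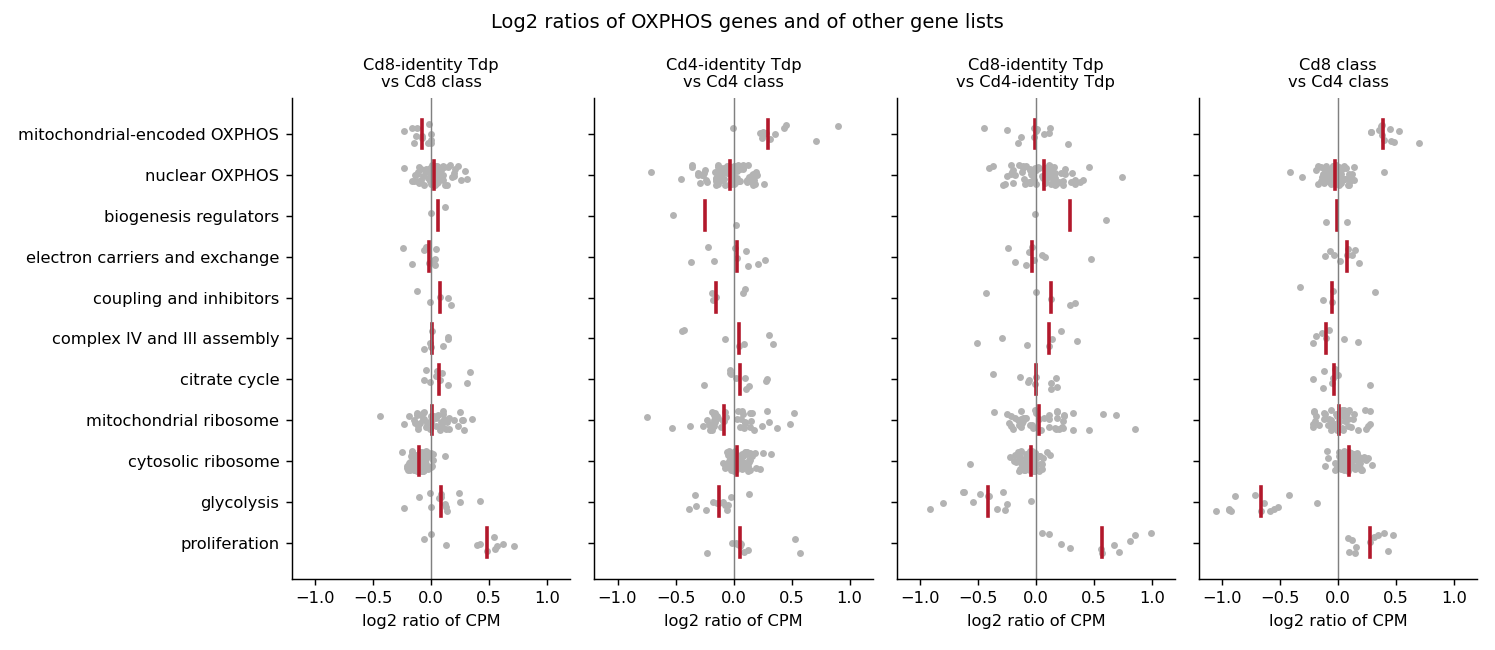
Log2 ratio of each measured gene of the 2 oxidative phosphorylation sets and of the other gene lists in 4 comparisons of classes, with medians in red. In the Cd8 class against the Cd4 class the mitochondrial-encoded median is 0.39 and the glycolysis median -0.66, while the nuclear median is -0.03.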

How the data were processed

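The members and the gene lists were chosen with earlier results of these data known. The authors deposited 1 table of UMI counts per gene and cell, and a per-cell annotation (identity, Tdp status, hashtag number); per the submitters' processing notes, Cell Ranger 3.1.0, Seurat 3.2.3 and mm10 were used. Hashtag and receptor libraries and antibody counts are not analysed here. All 5564 annotated cells were kept (median 3869 UMIs, lowest 501), no doublet caller was run, and the sources used here do not say whether doublets were removed before deposit; leaving out cells with 2 Trbv genes was an alternative. From the counts, UMIs were summed per class and divided by the class total without 108 receptor and immunoglobulin genes, which held 0.324% of UMIs. Levels have exact Poisson 95% intervals and ratios of 2 classes exact conditional binomial ones; molecules of 1 cell are not independent, so both cover counting error only. Intervals of the ratio code were tested on simulated Poisson class sums. These hold no spread between cells, so the test checks the code and not how well the intervals suit these data. The size rule for called members is given above. Values within a hashtag number, quartile or state needed at least 20 cells on either side.

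Named are all mitochondrial-encoded members at 50 CPM or more, members at the ends of each comparison's nuclear list and 1 anchor per complex (Ndufv1, Sdha, Uqcrc1, Cox4i1, Atp5b), called members, and the ends of the other lists; the Foxp3 and Pdcd1 splits were chosen after values were seen. Some genes that this rule names are not reported here. Analyses used Python 3.11.15, numpy 2.4.6, pandas 2.3.3 and scipy 1.17.1, and edgeR 4.0.16 in R 4.3.3 for the TMM factors alone; figures used matplotlib 3.10.9.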

Additional observations from a re-analysis of the deposited data

How the results depend on the processing

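No paired analysis was possible because all cells come from 1 library and hashtag numbers are not replicates. Leaving out cells with 2 Trbv genes or with a Foxp3 UMI was chosen after seeing the data. Values are log2 ratios of the summed set, first as reported. Mitochondrial-encoded, Cd8 class against Cd4 class (0.39): 0.42 with TMM, 0.43 with a denominator without mitochondrial and ribosomal protein genes, 0.46 in cells thinned to 2000 UMIs, 0.46 with each cell counting the same, 0.42 without cycling cells, 0.44 without cells with markers of other cell types, 0.43 in cells with their own co-receptor UMI, 0.31 with cells of the Cd4 class weighted by hashtag number and UMI total, and 0.33 without Foxp3 cells. Cd4-identity Tdp against Cd4 class (0.30): 0.26 with TMM, 0.36 thinned, 0.26 without cycling cells, 0.27 weighted and 0.24 without Foxp3 cells. Cd8-identity Tdp against Cd4-identity Tdp (0.02): 0.11 without cycling cells and 0.065 without other cells' markers. Cd8-identity Tdp against Cd8 class (-0.07): -0.12 with TMM, -0.10 with the other denominator, -0.12 with each cell the same, -0.12 with own co-receptor, -0.030 weighted and -0.036 without cells above 3% mitochondrial UMIs.

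Nuclear, Cd8 class against Cd4 class (-0.02): 0.0085 with TMM, 0.014 with the other denominator, -0.041 with each cell the same, -0.034 without cycling cells, -0.0447 with own co-receptor, -0.0451 weighted and -0.036 without Foxp3 cells. Cd4-identity Tdp against Cd4 class (-0.03): -0.069 with TMM and -0.072 weighted. Cd8-identity Tdp against Cd4-identity Tdp (0.04): 0.072 thinned. Cd8-identity Tdp against Cd8 class (0.03): -0.018 with TMM, 0.00052 with the other denominator, 0.060 thinned, 0.096 with each cell the same, -0.0030 weighted and 0.064 without 2 Trbv genes.

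Counts of called members moved as follows. Mitochondrial-encoded, Cd8 over Cd4 class, 10 higher became 5 weighted and 6 without Foxp3 cells. Between the Tdp groups, 0 higher became 1 with each cell the same, without other cells' markers, weighted and without Foxp3 cells. Nuclear, Cd4-identity Tdp over Cd4 class, 0 higher became 1 thinned, 2 with each cell the same, 1 without cycling cells and 1 with no level filter. The 2 lower became 7 with TMM, 4 without cycling cells, 4 without other cells' markers, 6 weighted, 4 without 2 Trbv genes, 5 without Foxp3 cells and 4 with no interval in the rule. Cd8 over Cd4 class, 1 higher became 4 with no level filter, and 1 lower became 3 thinned, 3 with no level filter and 2 with each cell the same, without cycling cells, without other cells' markers, with own co-receptor, weighted and without Foxp3 cells. Between the Tdp groups, 4 higher became 2 thinned and 1 without cycling cells, and 1 lower became 2 with each cell the same, no level filter or no interval. Cd8-identity Tdp over Cd8 class, 0 higher became 1 thinned, without cycling cells, without other cells' markers, with own co-receptor and without 2 Trbv genes, 2 with each cell the same and 3 with no level filter, and 0 lower became 1 weighted.

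Depth limits Cd4-identity Tdp most, where a member near 50 CPM has fewer than 30 UMIs. The causes of these shifts were not tested.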
